A study of Mus musculus with 6 samples.

Results

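Interferon-stimulated genes are the genes that cells switch on when interferon, a secreted warning signal of infection, reaches its receptor. The set described here holds 39 of them, chosen by name from the 45703 genes of the count table, and each name matched 1 row. They were measured in 6 primary cultures of dorsal root ganglia, the clusters of sensory neurons and glia beside the spinal cord. All 6 cultures belonged to a single group: wild-type cells of C57BL/6 mice, 4 to 6 weeks old, grown for 7 days in vitro. The medium held 10% fetal calf serum and 2 growth factors, EGF and FGF, each at 10 ng/ml, and RNA of 2 dishes was pooled per sample. The design calls them biological replicates, and the labels do not say which animals went into which culture. No interferon-treated culture and no intact ganglion was analysed here, so the comparisons are between replicate cultures and between genes within a library. If the replicates share animals or a preparation, the spread between them may be partly technical.

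Type I interferons bind the receptor chains IFNAR1 and IFNAR2, whose kinases JAK1 and TYK2 activate transcription factors, among them STAT2. A complex called ISGF3, of which STAT2 and IRF9 are subunits, binds the interferon-stimulated response element (ISRE) near the start of its target genes. Type II interferon acts through IFNGR1 and IFNGR2, and its target genes are known to carry the gamma-activated sequence (GAS). In the absence of infection most of these genes run at a low basal level, which differs between cell types and helps to set how quickly a cell can respond to a virus.

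The promoters of these genes are shown first because the ISRE is the sequence through which many such genes are known to be switched on together. RefSeq promoter sequences of GRCm38.p6, from 250 bases before the annotated start site to 50 after it, were found for 31 of the 39 genes. Spellings of both elements were searched on both strands. For the ISRE these were the letters GAAA, any 2 bases and GAAA again, which read TTTC, any 2 bases and TTTC on the other strand. For the GAS they were TTC, any 3 bases and GAA, which read the same on both strands. The ISRE spelling lay in the promoter of 17 of 31 genes (54.8%), against 1079 of 27025 genes in the whole promoter table (3.99%). A stricter ISRE spelling, AGTTTC, any 2 bases and TTTC, lay in 10 of 31 (32.3%) against 82 of 27025 (0.303%). The GAS spelling lay in 10 of 31 (32.3%) against 2582 of 27025 (9.55%). A match is a description of these letters and not a measured binding site.

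Sequences of 5 promoters follow, 5′ to 3′ on the strand of the gene, with the ISRE spelling in capitals. Rsad2 (chr12:26456403-26456702, minus strand) and Ifit1 (chr19:34640639-34640938, plus strand) are given whole because, among the set's genes with a mean of at least 1 CPM, they had the largest ratio of the highest to the next highest library. Rsad2 met that mean only through its value in replicate 6. Ifit3 (chr19:34583348-34583441, plus strand), Isg15 (chr4:156200850-156200921, minus strand) and Gbp2 (chr3:142620579-142620638, plus strand) are given as the stretch around the matches.
Rsad2: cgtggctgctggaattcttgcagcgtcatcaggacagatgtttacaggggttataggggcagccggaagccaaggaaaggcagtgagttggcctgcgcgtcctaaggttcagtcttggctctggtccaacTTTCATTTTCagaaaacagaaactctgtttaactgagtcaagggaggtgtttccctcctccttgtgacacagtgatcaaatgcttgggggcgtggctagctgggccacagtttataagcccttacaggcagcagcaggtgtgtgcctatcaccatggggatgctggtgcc
Ifit1: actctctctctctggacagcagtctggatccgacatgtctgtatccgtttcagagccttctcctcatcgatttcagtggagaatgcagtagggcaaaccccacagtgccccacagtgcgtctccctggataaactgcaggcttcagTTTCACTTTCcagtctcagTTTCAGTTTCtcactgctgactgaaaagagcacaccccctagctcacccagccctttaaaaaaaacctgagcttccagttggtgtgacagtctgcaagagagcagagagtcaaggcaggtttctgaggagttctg
Ifit3: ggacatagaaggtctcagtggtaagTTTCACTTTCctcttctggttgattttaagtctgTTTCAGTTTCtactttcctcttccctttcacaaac
Isg15: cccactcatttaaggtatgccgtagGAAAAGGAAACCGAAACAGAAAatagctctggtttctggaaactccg
Gbp2: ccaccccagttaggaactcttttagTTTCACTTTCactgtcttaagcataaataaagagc

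Ifit1 held 2 matches, the first bases of which lay 104 and 85 bases before the start site, and Rsad2 held 1 match 120 bases before it. In Isg15 3 matches overlapped in a single run. The 94 bases shown for Ifit3 were found letter for letter (94 of 94) upstream of its neighbour Ifit3b, at chr19:34607744-34607837. Neither of the annotated promoters of Ifit2, a further gene of the same cluster, held the ISRE spelling in its window.

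**Figure D1:**
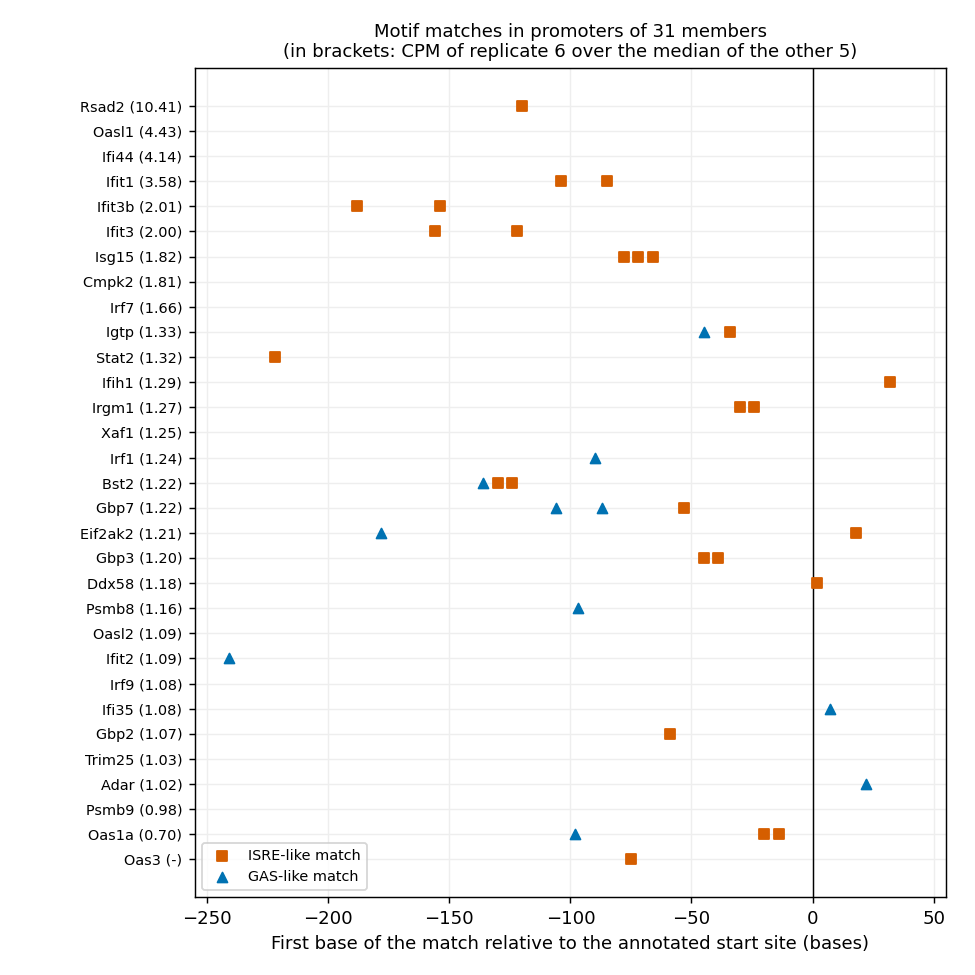
Positions of motif matches in the promoters of 31 interferon-stimulated genes: the x axis is the distance in bases of the first base of a match from the annotated start site, squares are ISRE spellings and triangles GAS spellings. Genes are ordered by the ratio of CPM in replicate 6 to the median of the other 5 cultures (in brackets, a dash where that median was 0); genes with and without an ISRE spelling are found at both ends of that order.

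Libraries held 20070639 to 22968642 counts. Levels are given as CPM, the count of a gene divided by the total of its library and multiplied by 1000000, and, to compare genes with each other, as CPM per kilobase of combined exon length. Marker genes of several cell types were present: by summed CPM, 3 glial lineage genes took 2122 to 3111, 5 neuron genes 670.3 to 1488, 5 fibroblast genes 1457 to 10068, 8 macrophage genes 15.6 to 140.6 and 5 endothelial genes 6.44 to 102.5. The macrophage sum was 15.6, 26.9, 107, 123, 141 and 36.7 in replicates 1 to 6. Of 6 lymphocyte and plasmacytoid dendritic cell genes, all had at most 3 counts in every library, and Cd3d, Ms4a1 and Siglech had 0. Fibroblast and endothelial sums were highest in replicate 5 and lowest in replicate 1. The low endothelial sum rested on Cdh5, at 2.79 CPM in replicate 1. Of the 5 endothelial genes, 2 were lowest there, Cdh5 and Tek, while Pecam1 was lowest in replicate 2 and Kdr in replicate 3. In bulk RNA, fewer cells of a type and less RNA per cell cannot be told apart.

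All 20 interferon genes looked for, the signals themselves, were at 0 counts in every library. They were 17 type I genes (among them Ifnb1 and Ifna4), Ifng, the type II interferon, and the type III genes Ifnl2 and Ifnl3. A count of 0 allows up to 3 counts, or 0.131 to 0.149 CPM, per library, and this limit covers counting error only.

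The receptor and kinase genes of the pathway were well above that limit, apart from Ifnlr1. Ifnar1 was at 121 ± 5.29 CPM and Ifnar2 at 64.6 ± 3.70 CPM, while the type II receptor chains Ifngr1 and Ifngr2 were at 48.5 ± 7.04 and 64.4 ± 11.5 CPM (SD, n = 6). Ifnlr1, the specific chain of the type III receptor, reached at most 0.427 CPM. Jak1 was at 459.6 ± 56.1 CPM and Tyk2 at 40.7 ± 2.43 CPM. Of the 6 receptor genes and of the 3 kinase genes Jak1, Jak2 and Tyk2, 0 had their highest level in replicate 6, as did 12.5% of all genes tested. Whether a gene varied beyond counting noise was tested by chi-square on its 6 counts, given library sizes scaled by the trimmed mean of M-values (TMM), with Benjamini-Hochberg adjustment over 14998 genes. The test called 5 of 5 tested receptor genes and 3 of 3 kinase genes at an adjusted p-value under 0.05. It called 76.3% of all genes tested.

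Of the 39 interferon-stimulated genes, 30 reached at least 1 CPM in all 6 libraries, as did 30.4% of all 45703 genes in the table. The levels covered a wide range, from Ifi27 at 93.2 ± 6.37 CPM per kb to Oas3 at 0.0498 ± 0.0690 CPM per kb (SD, n = 6). The order of levels was loose: of the 38 pairs of neighbours in that order, the difference kept 1 sign in all 6 libraries for 5. The upper end held Ifi27, a small mitochondrial and membrane protein, Gbp2 (23.6 ± 2.67 CPM per kb), a guanylate-binding GTPase, Ifit2 (19.9 ± 2.28), an RNA-binding protein, and Parp14 (19.3 ± 3.16), an ADP-ribosyltransferase. The lower end held Mx1, Oas1a, Oas2, Oas3, Oasl1 and Ifi44, all with a mean under 1 CPM.

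**Figure D2:**
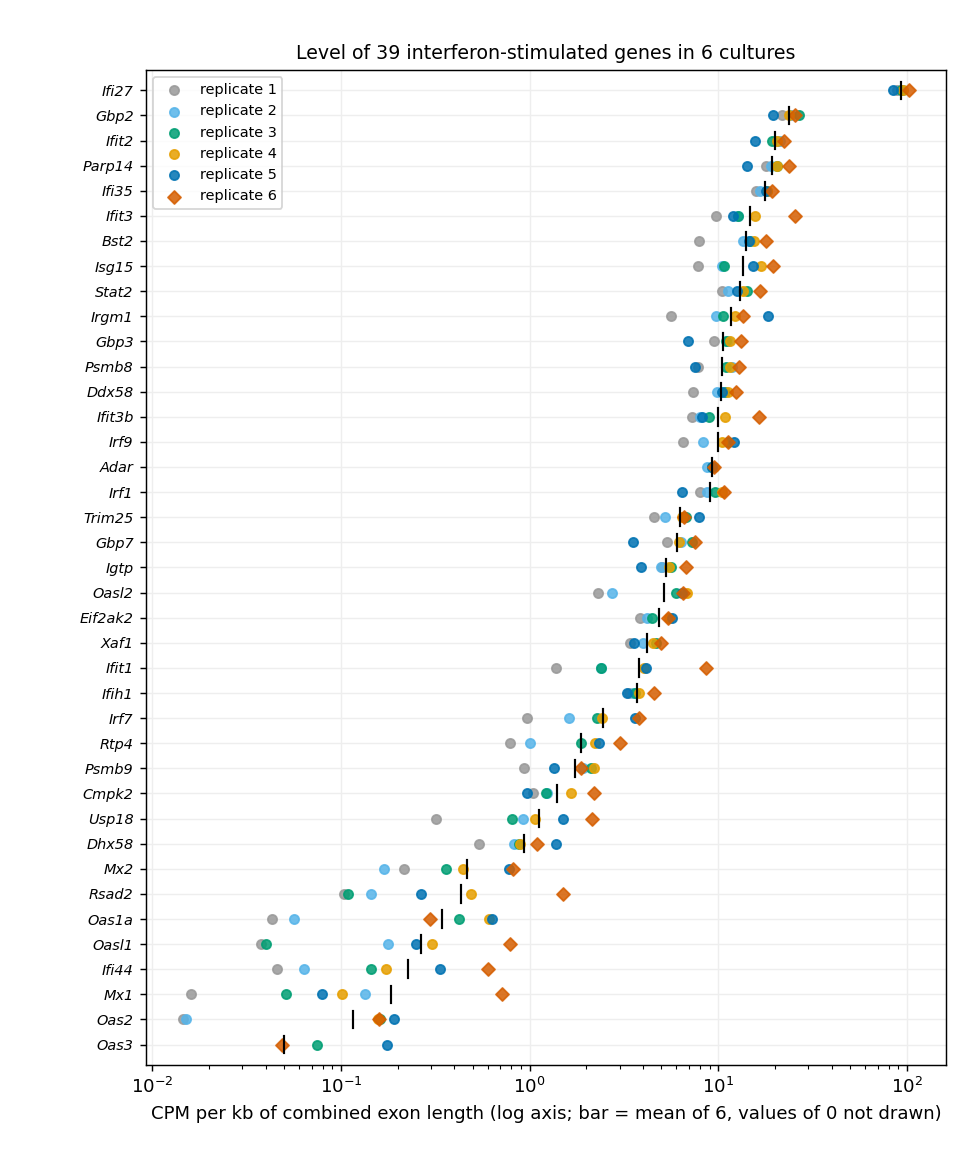
Level of each of the 39 genes in the 6 cultures, as CPM per kb of combined exon length on a log axis; each point is a library (diamonds are replicate 6) and the bar is the mean of 6. Genes at the upper end, such as Ifi27 at 93.2, have tight points, and Rsad2 and Mx1, at means under 1 CPM per kb, spread widely with replicate 6 at the right, whereas Dhx58, Oas1a, Oas2 and Oas3 were highest in replicate 5.

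Most pairs of related genes differed in level within every library. Of 25 pairs tested per kilobase, 24 differed in the same direction in all 6 libraries (two-sided exact sign-flip permutation test on log2(CPM per kb + 0.1), p = 0.0312 each, the smallest that 6 libraries can give, adjusted p = 0.0326 over the 25 pairs). Of these, Oas1a against Oas2 and Oas2 against Oas3 rest on at most 3 counts per gene in replicates 1 and 2, so their order there is not resolved. In replicate 5, Oas2 and Oas3 differed by only 0.08, on 24 and 18 counts. Mx1 against Mx2 rests on 8 against 9 counts in replicate 2 and 40.5 against 41.5 in replicate 6, so that order is not resolved there either. Stat2 was at 13.1 CPM per kb and Irf9 at 9.96. Division by length matters for such pairs: Ifnar1 lay below Ifnar2 by 0.27 ± 0.13 per kilobase, and above it by 0.91 on undivided CPM.

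**Figure D3:**
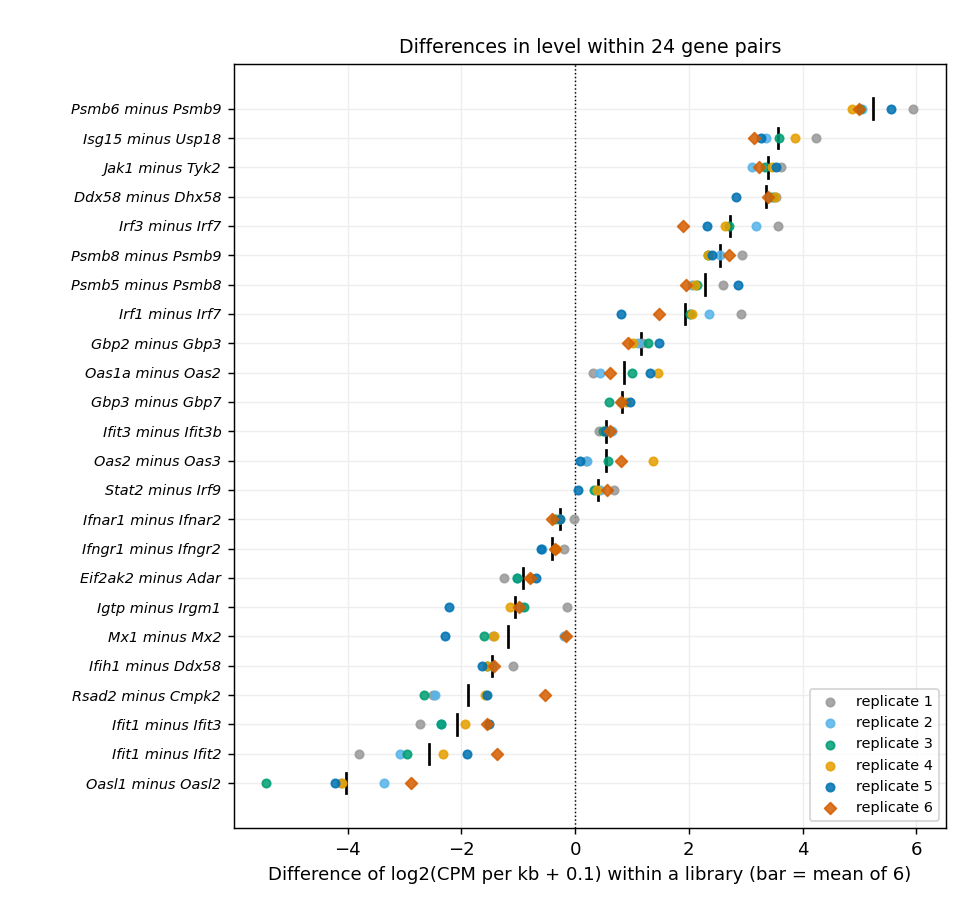
Difference of log2(CPM per kb + 0.1) within each library for 24 pairs of related genes; points are libraries (diamonds are replicate 6) and bars the mean of 6. All 6 points lie on 1 side of zero for each pair shown, which are those that kept 1 direction, and replicate 6 is at the right-hand end for Rsad2 minus Cmpk2 and Ifit1 minus Ifit2.

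The transcription factors are known to range from constitutive to inducible, and only their levels, not their induction, were measured here. Irf3, the factor that is present before infection and starts interferon production, was at 15.4 ± 1.97 CPM per kb. Irf7, which is itself induced by interferon and amplifies the response, was at 2.46 ± 1.11 CPM per kb (SD, n = 6). The within-library difference of Irf3 over Irf7 was 2.72 ± 0.59 on the log2 scale and ranged from 3.56 in replicate 1 to 1.89 in replicate 6. In CPM, Irf7 was at 1.87, 3.14, 4.43, 4.68, 7.02 and 7.36 in replicates 1 to 6, so its highest values were in replicates 5 and 6. Stat2 was at 46.8, 50.2, 63.4, 60.7, 56.4 and 74.2 CPM, and replicate 6 was the highest. Irf9 was highest in replicate 5, at 32.5 CPM, and Irf1, a factor induced by both interferon types, was lowest there, at 21.6 CPM.

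Among the cytoplasmic sensors of viral RNA, Ddx58 (RIG-I) was at 10.4 ± 1.70 CPM per kb, Ifih1 (MDA5) at 3.69 ± 0.452 and Dhx58 (LGP2), their regulator, at 0.936 ± 0.282 (SD, n = 6). Ddx58 exceeded Ifih1 by 1.45 ± 0.19 and Dhx58 by 3.36 ± 0.27 on the log2 scale, in 6 of 6 libraries. Ddx58 was at 36.2, 48.8, 53.5, 55.6, 51.9 and 61.1 CPM in replicates 1 to 6. Dhx58 was at 1.31, 2.00, 2.12, 2.14, 3.34 and 2.63 CPM in replicates 1 to 6. Trim25, a ubiquitin ligase that helps to activate RIG-I, was also highest in replicate 5, at 44.1 CPM. Ifih1 was at 26.4 CPM in replicate 6 and between 19.1 and 22.0 CPM in the other cultures. Its adjusted chi-square p was 2.54e-06, and 0.345 without replicate 6, so its call rested on that library.

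The Ifit genes encode proteins that bind viral RNA and block its translation, and 4 of them lie in a row on chromosome 19, from Ifit2 (34550550 to 34576534) through Ifit3 and Ifit3b to Ifit1 (34640889 to 34650009, GRCm38.p6). Their levels were unequal. Ifit2 was at 89.5, 92.5, 83.9, 89.9, 68.8 and 97.6 CPM in replicates 1 to 6, a narrow range with replicate 5 lowest. Ifit1 was at 3.64, 6.33, 6.32, 10.6, 10.9 and 22.7 CPM, and replicate 6 was 2.08 times the next highest culture. Ifit3 was at 26.3, 34.2, 34.2, 42.0, 32.2 and 68.4 CPM, and Ifit3b at 16.4, 18.1, 20.2, 24.4, 18.5 and 37.2 CPM. Replicate 6 was therefore 3.58 times the median of the other 5 cultures for Ifit1, 2.00 times for Ifit3, 2.01 times for Ifit3b and 1.09 times for Ifit2. The difference of Ifit1 from Ifit2 per kilobase ran from -3.80 on the log2 scale in replicate 1 to -1.37 in replicate 6. Ifit3 and Ifit3b are near-identical copies with fractional counts in 5 and 4 libraries, so how reads were divided between them is uncertain.

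Adar, the adenosine deaminase that edits double-stranded RNA, varied least of all 39 genes, at 64.4 ± 2.02 CPM (SD, n = 6), and was not called by the chi-square test (adjusted p = 0.464). Eif2ak2, the kinase PKR, which halts translation, was at 25.5 to 37.7 CPM and highest in replicate 5. The 2′-5′ oligoadenylate synthetases, which activate RNase L, were near the limit of detection. Oas2 had 2 counts in each of replicates 1 and 2 and 19 to 24 in replicates 3 to 6. Oas1a was at 0.0871, 0.114, 0.854, 1.22, 1.27 and 0.598 CPM, and Oas3 at 0, 0, 0.369, 0, 0.860 and 0.239 CPM. Of the related Oasl genes, Oasl1 was at 0.0871, 0.410, 0.0923, 0.698, 0.573 and 1.82 CPM, highest in replicate 6. Oasl2 was at 7.23, 8.65, 18.7, 21.5, 20.3 and 20.5 CPM, so replicates 1 and 2 stood below the other 4. The summed macrophage markers were also lowest in replicates 1 and 2, at 15.6 and 26.9 CPM, but were 36.7 CPM in replicate 6, where Oasl2 was as high as in replicates 3 to 5; the part of those cells in the levels of these genes was not tested.

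Rsad2 encodes viperin, an enzyme that makes a chain-terminating nucleotide, and lies beside Cmpk2, a mitochondrial nucleotide kinase, on chromosome 12 (26442743 to 26456452 for Rsad2, 26469117 to 26479837 for Cmpk2). Rsad2 had the widest spread of the 33 genes with a mean of at least 1 CPM, at 0.392, 0.546, 0.415, 1.84, 1.00 and 5.69 CPM in replicates 1 to 6. These values rest on 9, 12, 9, 37, 21 and 119 counts, and the mean of Rsad2 reached 1 CPM only through replicate 6. The 95% Wilson interval for replicate 6 was 4.75 to 6.81 CPM, above the interval of the next highest culture, replicate 4, of 1.34 to 2.54 CPM; these intervals cover counting error only. Cmpk2 was at 3.61, 4.28, 4.20, 5.73, 3.34 and 7.60 CPM, so replicate 6 was again highest, with replicate 4 next.

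Other antiviral effectors had the same highest library. Ifi27 was at 117, 126, 123, 125, 112 and 136 CPM in replicates 1 to 6. All 11 genes of this group were highest in replicate 6, against 14.0% of all genes with any count, although Ifi27 there was 1.11 times and Ifi35 1.08 times the median of the other 5 cultures. Mx1, a dynamin-like GTPase that traps viral particles, had 1, 8, 3, 5.5, 4.5 and 40.5 counts in replicates 1 to 6, which is 1.94 CPM in replicate 6 and at most 0.364 CPM elsewhere. In C57BL/6 mice this gene is known to carry a deletion that removes its antiviral function. Mx2 was at 0.522, 0.410, 0.877, 1.07, 1.89 and 1.98 CPM, with replicate 5 nearly as high as replicate 6. Ifi44 was at 0.131, 0.182, 0.415, 0.498, 0.965 and 1.72 CPM, and Rtp4, a chaperone of receptors, at 2.26, 2.87, 5.35, 6.38, 6.69 and 8.65 CPM. Bst2 (tetherin), which holds budding virus on the cell surface, was lowest in replicate 1 at 6.36 CPM and highest in replicate 6 at 14.4 CPM. Xaf1, a protein of the cell death pathway, was at 20.6 to 30.2 CPM. Parp14 was at 247 CPM in replicate 6 and 149 CPM in replicate 5, its lowest culture.

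Isg15 encodes a ubiquitin-like protein that is attached to other proteins, and Usp18 the protease that removes it and damps receptor signalling. Isg15 was at 5.88, 7.88, 8.12, 12.8, 11.6 and 14.8 CPM in replicates 1 to 6. Usp18 was at 0.566, 1.64, 1.43, 1.89, 2.68 and 3.78 CPM and both genes were lowest in replicate 1 and highest in replicate 6. Per kilobase, Isg15 exceeded Usp18 by 3.57 ± 0.41 on the log2 scale in 6 of 6 libraries.

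The interferon-inducible GTPases, which attack the vacuoles of intracellular pathogens and are known to respond strongly to type II interferon, differed among themselves in their highest culture. Gbp2 was at 53.4, 59.7, 66.1, 58.3, 47.7 and 62.3 CPM in replicates 1 to 6, highest in replicate 3. Gbp3 and Gbp7, its neighbours on chromosome 3, were at 22.1 and 19.8 CPM in replicate 5, their lowest culture, and at 42.2 and 42.4 CPM in replicate 6. Igtp (Irgm3) was at 10.2, 10.0, 11.4, 11.0, 7.88 and 13.6 CPM, likewise lowest in replicate 5. Irgm1, a regulator of the other immunity-related GTPases, went the other way, at 15.3, 26.6, 29.0, 33.5, 50.4 and 36.9 CPM, highest in replicate 5. Counts of Gbp2, Gbp3 and Gbp7 were fractional in 5 libraries each, so reads shared between these related genes make their levels less certain.

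Psmb8 and Psmb9 encode subunits that replace Psmb5 and Psmb6 in the immunoproteasome, which makes peptides for antigen presentation. Psmb8 was at 10.4 ± 2.21 CPM per kb against 50.4 ± 2.69 for Psmb5, and Psmb9 was at 1.73 ± 0.491 against 66.8 ± 3.03 for Psmb6 (SD, n = 6). The differences on the log2 scale were 2.29 ± 0.36 and 5.24 ± 0.42, in 6 of 6 libraries. Psmb9 was at 1.00, 2.05, 2.26, 2.34, 1.43 and 2.01 CPM in replicates 1 to 6. Psmb8 was lowest in replicates 5 and 1, at 9.22 and 9.58 CPM, and between 13.5 and 15.7 CPM in the other 4.

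**Figure D4:**
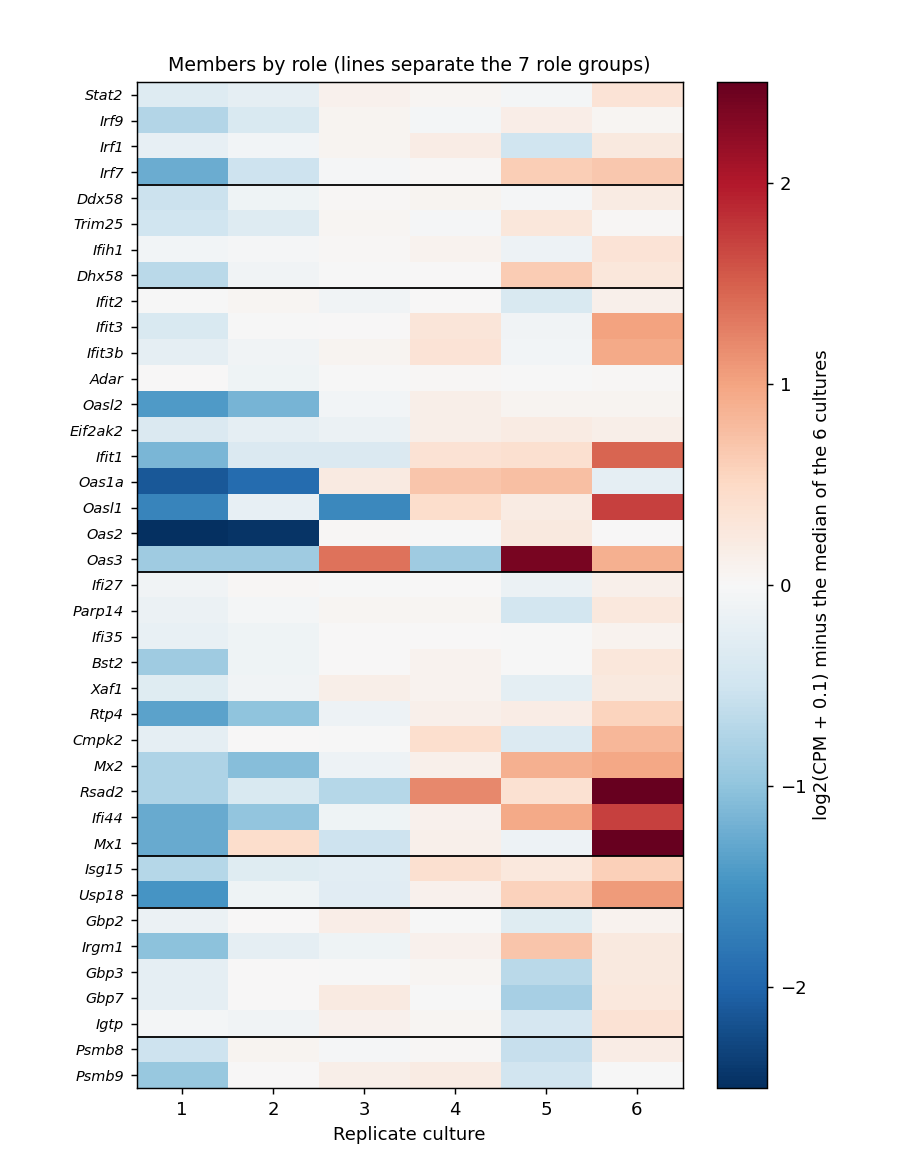
Deviation of each gene in each culture, as log2(CPM + 0.1) minus the median of the 6 cultures, with genes in rows by role and cultures in columns. Red marks levels above the gene's own median: the replicate 6 column is red for Rsad2, Mx1, Oasl1, Ifi44 and Ifit1, and the replicate 1 column is blue for most rows.

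Across the set, replicate 6 was most often the highest culture and replicate 1 most often the lowest, though not always for the same genes. Of all 39 genes, 28 were highest in replicate 6, where 14.0% of the 26926 genes with any count were highest. These 28 include Adar, by 1.00015-fold over the next culture, and Ifi35, neither of which the chi-square test called. In replicate 5, 8 were highest, against 26.5% of those 26926 genes. In replicate 1, 25 of 39 were lowest, against 18.5%, with ties left out. Among the 31 genes that passed edgeR's filter on low counts, which leaves out Rsad2, Mx1, Mx2, Ifi44, Oasl1, Oas1a, Oas2 and Oas3, 23 were highest in replicate 6 (12.5% of the 14998 genes tested) and 19 lowest in replicate 1 (23.8%). The remaining highest values lay in replicate 3 for 1 gene (20.0%), in replicate 4 for 2 (9.37%) and in replicates 1 and 2 for 0 (18.2% and 10.7%). The lowest value lay in replicate 2 for 1 gene (17.4%) and in replicates 3, 4 and 6 for 0 (7.84%, 8.75% and 15.9%). Replicate 5 was the highest culture for 5 of the 31 (29.2%) and the lowest for 11 (26.2%).

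The size of the excess in replicate 6 was small for most genes and large for a few. The median of log2(CPM in replicate 6 / median of the other 5) over the 31 genes was 0.31, against -0.02 over all genes tested. At least 1.5-fold above the median of the other 5 were 8 of the 31 genes in replicate 6 (1.93% of all genes), namely Ifit1, Usp18, Ifit3, Ifit3b, Isg15, Cmpk2, Irf7 and Rtp4. The rule was also met by 5 genes in replicate 5 (8.66%), namely Irgm1, Dhx58, Ifit1, Usp18 and Irf7. Ifit1, Usp18 and Irf7 thus met it in both replicates 5 and 6. It was met by 2 genes in replicate 4 (4.14%) and 0 in replicates 1, 2 and 3 (2.79%, 1.15% and 5.52%). The median over the 31 genes was -0.40 in replicate 1, against -0.02 over all genes. Replicate 5, the culture with the highest fibroblast, endothelial and macrophage sums, had a median of -0.09, against 0.01.

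**Figure D5:**
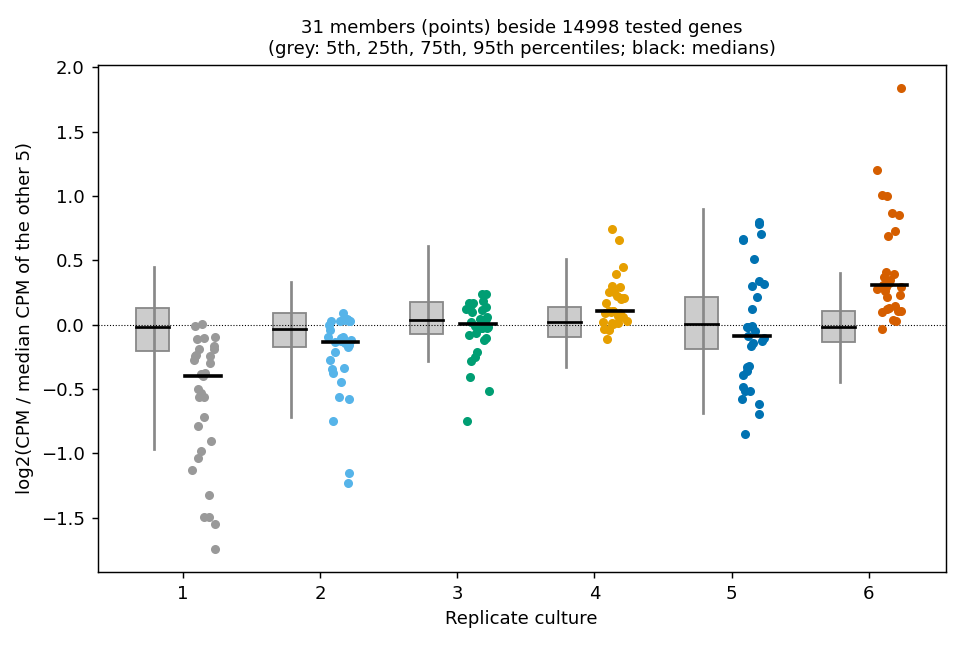
For each culture, log2 of the CPM of a gene over the median of the other 5 cultures: coloured points are the 31 interferon-stimulated genes that passed the filter, and the grey bars and boxes show the percentiles of 14998 tested genes. Replicate 6 has a median of 0.31 for the set against -0.02 for all genes, and replicate 1 has -0.40 against -0.02.

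A stricter rule left a short list. Among the 14953 genes of the whole table with a mean of at least 1 CPM, 3 were at least 2-fold above the next highest culture in replicate 6 (0.0201%): Rsad2 (3.09-fold), Ifit1 (2.08-fold) and 1700003E16Rik (2.00-fold), a gene outside the set. The corresponding numbers were 9, 0, 1, 2 and 266 genes for replicates 1 to 5 (0.0602%, 0, 0.00669%, 0.0134% and 1.78%), and 0 of them belonged to the set. Rsad2 met the minimum mean of 1 CPM only through replicate 6 itself, the library in which the rule then finds it high. With a minimum mean of 5 CPM in place of 1, only Ifit1 of these 3 was kept in replicate 6. These rules were chosen after the values were seen, the share is a description, and no p-value is attached to it. Macrophage markers summed to 36.7 CPM in replicate 6, against 15.6 and 26.9 CPM in replicates 1 and 2 and 107 to 141 CPM in replicates 3 to 5. The endothelial markers summed to 18.6 CPM in replicate 6, against 6.44 CPM in replicate 1 and 102.5 CPM in replicate 5. The difference from replicate 1 rested on Cdh5, at 2.79 CPM there and 15.8 CPM in replicate 6. The fibroblast, glial lineage and neuron sums in replicate 6 were 2186, 2784 and 1087 CPM. The lymphocyte and plasmacytoid dendritic cell genes summed to 0.0478 CPM there. The part of any of these cells in the levels of the set was not tested.

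The spread between cultures was set against counting noise and against genes of similar abundance. The chi-square test called 29 of the 31 tested genes, where 76.3% of all genes were called, and the 2 not called were Adar and Ifi35. The biological coefficient of variation, by which edgeR measures how far levels differ between libraries beyond counting noise, lay above the value fitted for genes of like abundance for 17 of the 31 genes, against 20.4% of all genes. Its median was 0.208 for the 31 genes and 0.153 for all genes tested. It was 0.523 for Ifit1, 0.488 for Usp18, 0.420 for Rtp4 and 0.414 for Irf7. Without replicate 6, 11 of 31 genes lay above the trend, against 20.0% of all genes.

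Antigen presentation genes, which interferons also induce, had their highest value in the same culture. All 8 of the genes listed (B2m, H2-K1, H2-D1, Tap1, Tap2, Tapbp, Nlrc5 and Psmb10) were highest in replicate 6, against 12.5% of all genes tested. The excess over the median of the other 5 cultures was between 1.05-fold for H2-D1 and 1.38-fold for Tap1 and Tapbp. Over the next highest culture it was 1.005-fold for H2-D1 and 1.013-fold for Tapbp. These ranks used library totals, and TMM factors ran from 0.976 to 1.02, so ranks with such margins can depend on the scaling. On TMM-scaled CPM, Tapbp was highest in replicate 2 instead, and H2-D1 stayed highest in replicate 6. Counts of H2-K1, H2-D1 and Tapbp were fractional in 6 libraries each, so their levels are less certain. The chi-square test called 8 of 8 of them. Of 3 constitutive proteasome genes, 0 were highest in replicate 6 and 1, Psmb5, was called, with its highest value in replicate 5.

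Genes that sense pathogens and start interferon production were measured as well. Of 11 such genes, 9 reached 1 CPM in all 6 libraries (30.4% of all genes) and 2 were highest in replicate 6 (12.5% of all genes tested), namely Tlr3, the endosomal receptor for double-stranded RNA, at 34.2 CPM there and 17.1 to 26.6 CPM elsewhere, and Tlr4, the receptor for bacterial endotoxin, at 47.6 CPM there and 35.5 to 45.2 CPM elsewhere. The adaptor Mavs was at 37.0 ± 3.69 CPM and the kinase Tbk1 at 53.4 ± 2.43 CPM (SD, n = 6). Sting1, the adaptor for cytosolic DNA, was lowest in replicate 1 (3.22 CPM) and highest in replicate 5 (35.2 CPM). These cultures had the lowest and highest fibroblast, endothelial and macrophage sums, the low endothelial sum resting on Cdh5. The part of those cells was not tested. Socs1, a feedback inhibitor of the receptors that interferon itself induces, was at 1.67 to 1.89 CPM in 5 cultures and at 3.54 CPM in replicate 5. Socs3, another inhibitor of this family, was at 41.3 to 81.7 CPM.

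Promoter spelling and the excess in replicate 6 were set side by side for the 31 genes with a promoter sequence. Of 17 genes with the ISRE spelling, 12 were highest in replicate 6, and of 14 without it, 10 were, against 14.0% of all genes with any count. Rsad2, Oas1a, Oas3, Oasl1 and Ifi44 did not pass the filter on low counts and rest on few counts. Their ranks and ratios, which set some ends of the ranges below, are therefore less certain. The median ratio of replicate 6 to the median of the other 5 cultures was 1.28 over 16 genes with the spelling (Oas3 has no ratio, since the median of its other 5 cultures was 0), ranging from 0.700 (Oas1a) to 10.4 (Rsad2), and 1.13 without it, ranging from 0.980 (Psmb9) to 4.43 (Oasl1). Gbp2, whose promoter holds the same letters as the first match of Ifit1, had a ratio of 1.07 against 3.58 for Ifit1.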

How the data were processed

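Poly-A RNA of 6 cultures was sequenced from stranded libraries, per the labels' protocols. Per the submitters' processing notes, bcl2fastq 2.20.0.422, cutadapt 2.5, STAR 2.7.2b and featureCounts 1.6.4 were used with build GRCm38.p6; the strand setting and the handling of multi-matching reads are not given in the sources used here. The values are estimated counts per gene as deposited by the authors, unscaled and partly fractional. Libraries held 20070639 to 22968642 counts, and 0 other columns of per-sample values were present.

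CPM used library totals, and CPM per kb the deposited exon length. Counts were rounded for R 4.3.3 packages edgeR 4.0.16 and, as an alternative, DESeq2 1.42.0. Genes kept by filterByExpr were scaled by the trimmed mean of M-values (TMM). The chi-square test and dispersion fit ran on all kept genes with Benjamini-Hochberg adjustment at 0.05, after a test on simulated data. Gene pairs used an exact sign-flip test over 64 patterns with a pseudocount of 0.1; 25 pairs were tested, and 1 of them is not reported here. The members, lists and pairs were chosen with earlier results of these data known. Every member is named; values by library are given for the highest and lowest of each role group, for the 10 members with the largest ratio of highest to lowest library among those with a mean of at least 1 CPM, and for described pairs. The older symbols Tmem173 and Mb21d1 were matched to Sting1 and Cgas through RefSeq synonyms. Alternatives were other scaling, no filter, whole counts only, other thresholds, thinning and leaving out each replicate.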

Additional observations from a re-analysis of the deposited data

Results flagged for a closer look

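The gap between the most extreme culture and its nearest neighbour, divided by the range of the 6 cultures, was compared with the 95% critical value of Dixon for 76 genes of the set and its pathway with more than 3 counts in some library. It was exceeded by 8 genes, where chance would give 3.8 if the values of each gene were normally distributed. Values near the floor are skewed and the genes share the same 6 libraries, so 3.8 is a rough guide only. Of the 5 interferon-stimulated genes among them, 4 were high in replicate 6: Mx1 (0.831), Rsad2 (0.726), Oasl1 (0.647), at 1.82 CPM against 0.698 CPM in the next culture, and Ifit3 (0.626), which is at the critical value. The fifth, Adar (0.693), was low in replicate 2, at 60.5 CPM against 64.3 CPM in the next lowest, a gap that the chi-square test did not separate from counting noise. Of the pathway genes, Socs1 (0.882) and Psmb5 (0.764) were high in replicate 5, and Ifnar2 (0.641) was low in replicate 1, at 57.5 CPM against 64.3 CPM.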

How the results depend on the processing

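No paired analysis was possible because all 6 libraries form 1 group. Of the alternative values for the main counts, 78 were within 1.5 times the reported count and 17 were not. On genes with whole counts only, 17 of the 31 genes remained, and fewer genes were tested. Of these 17, 16 varied beyond counting noise, against 81.0% of the 7224 whole-count genes tested. The highest culture was replicate 6 for 13, replicate 5 for 2 and replicate 3 for 0. The lowest culture was replicate 1 for 9 and replicate 5 for 7. Shares over all whole-count genes were not computed for these ranks. Leaving out single cultures gave 11 to 21 genes above the trended dispersion, 11 being the value without replicate 6. With a mean of at least 5 CPM, 1 gene of the set was highest in replicate 4, and the genes of the whole table at least 2-fold above the next culture numbered 2, 0, 0, 118 and 1 in replicates 1, 3, 4, 5 and 6. With 2-fold in place of 1.5-fold over the median of the other cultures, 4 genes of the set passed in replicate 6, 0 in replicate 4 and 0 in replicate 5. The share of all genes was not computed for that 2-fold rule, nor for the highest culture at 5 CPM. The 2-fold rules, their 5 CPM minimum and the whole-count version of the highest and lowest cultures were chosen after seeing the data. The stricter ISRE spelling left 10 genes. Without division by length these pairs reversed: Ifnar1 minus Ifnar2 (0.91) and Oas1a minus Oas2 (-0.022). Single calls of variation were lost for Dhx58 and Psmb9 without replicate 1 (adjusted p = 0.0534 and 0.308), for Dhx58 without replicate 5 (0.0643) and for Ifih1 without replicate 6 (0.345), and Ifi35 passed without replicate 2, 3, 4 or 5 (edgeR-scaled chi-square test). Genes under 1 CPM rest on few counts, which limits what can be said of Mx1, Oasl1, Ifi44 and the Oas genes.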

Other observations

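Irf8 and Tlr7, pathway genes known from macrophages and other myeloid cells, had another order of cultures than Rsad2 and Ifit1. Irf8, a myeloid transcription factor, was lowest in replicate 1 (0.435 CPM) and highest in replicate 5 (4.39 CPM). Tlr7, an endosomal receptor for single-stranded RNA, was at 0.566 and 6.93 CPM in the same cultures. In replicate 6, Tlr7 was 0.349 times and Irf8 0.480 times the median of the other 5 cultures, whereas Rsad2 was 10.4 times and Mx1 9.01 times that median. Irf5, another of the regulators listed, was lowest in replicate 2 (0.592 CPM) and highest in replicate 4 (4.58 CPM), and 0.756 times that median in replicate 6. The summed macrophage markers were 36.7 CPM in replicate 6 and 140.6 CPM in replicate 5. The part of macrophages in the levels of all these genes was not tested.

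Below the 3 genes named for replicate 6, the next by ratio to the second highest culture were Neb (1.92), Sfrp1 (1.80), Pdgfb (1.76) and Rep15 (1.75), none of which belongs to the set.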
